A study of Mus musculus with 12 samples.

Results

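The genes described are 7 subunits of the GABA-A receptor, Gabra2, Gabra4, Gabra6, Gabrb1, Gabrb2, Gabrg1 and Gabrd, chosen by symbol from the 24421 genes of the deposited table. RNA was sequenced from GFP+ cells that were sorted from dissociated cerebellum of mice at postnatal day 1 (P1), P7, P14 and P28, with 3 libraries at each age and 12 in all. Every library came from Aldh1l1-GFP mice kept on the C57/BL6J background, and no other genotype, treatment or GFP-negative fraction was part of the comparison. In these mice GFP follows the Aldh1l1 promoter, which is active in astrocytes, and cells were sorted by GFP. The libraries also held transcripts of markers of other cell types, given below. A transcript in these libraries therefore cannot be assigned to one cell type. The labels number the libraries 1 to 3 at each age and do not state whether they came from separate animals, so p-values measure the spread between these libraries. Values are the authors' normalized counts, in which a library's reads per gene are divided by one size factor.

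GABA-A receptors are chloride channels opened by the transmitter GABA, and each is assembled from alpha and beta subunits together with a gamma or delta subunit. The choice of subunit sets where a receptor sits and how it responds: receptors with delta lie outside synapses and carry tonic inhibition, while others gather at synapses. In the cerebellum Gabra6 is the alpha subunit typical of granule neurons, where it pairs with the delta subunit Gabrd, and Gabra2 and Gabrg1 are known from Bergmann glia, the radial astrocytes of the cerebellar cortex. Gabra2, Gabrg1 and Gabrb1 are called the glial subunits here, Gabra6 and Gabrd the granule neuron subunits, and Gabra4 and Gabrb2 were assigned to neither.

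Of the 7 genes, 4 lie side by side on chromosome 5, and their order along it is Gabrg1, Gabra2, Gabra4 and Gabrb1 (GRCm38, the build also named mm10, with gene bounds from GENCODE M21). Gabrg1 covers chr5:70751047-70842617 and Gabra2 covers chr5:70957597-71095849, both on the minus strand. Gabra4, on the minus strand at chr5:71569749-71658308, and Gabrb1, on the plus strand at chr5:71658113-72149037, start head to head and their annotated ends overlap by 196 bases. Whether strand was used in counting is not stated, so reads in that overlap cannot be assigned to one gene. Gabra6, on the minus strand at chr11:42306437-42321072, is a neighbour of Gabrb2, on the plus strand at chr11:42419757-42629028, and Gabrd lies apart from both groups on the minus strand at chr4:155384980-155398112.

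Promoter windows from RefSeq (GRCm38.p6), reaching from 250 bases before to 50 bases after a gene's start, were found for 6 of the 7 genes, in 9 windows. Shown are those of Gabrg1 and Gabra2, the glial neighbours that changed by different amounts, of the head-to-head pair Gabra4 and Gabrb1, and of Gabra6, the gene with no read at P1. For Gabrb1 only the window nearer to Gabra4 is shown. Each window is written 5′ to 3′ on the strand of the gene, with CpG dinucleotides in capitals.
Gabrg1 (chr5:70842568-70842867, minus strand): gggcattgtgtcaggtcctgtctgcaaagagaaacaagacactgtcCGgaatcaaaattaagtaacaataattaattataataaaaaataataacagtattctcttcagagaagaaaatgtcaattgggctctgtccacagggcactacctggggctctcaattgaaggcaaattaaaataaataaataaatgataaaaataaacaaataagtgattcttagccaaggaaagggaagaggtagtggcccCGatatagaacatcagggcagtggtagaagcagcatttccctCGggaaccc
Gabra2 (chr5:71095800-71096099, minus strand): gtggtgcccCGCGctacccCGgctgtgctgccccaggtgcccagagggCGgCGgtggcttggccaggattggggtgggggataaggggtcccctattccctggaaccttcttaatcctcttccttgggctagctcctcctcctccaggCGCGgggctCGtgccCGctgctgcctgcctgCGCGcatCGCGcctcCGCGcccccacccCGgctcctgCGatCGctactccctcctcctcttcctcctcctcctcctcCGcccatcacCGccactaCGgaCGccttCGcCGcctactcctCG
Gabra4 (chr5:71658259-71658558, minus strand): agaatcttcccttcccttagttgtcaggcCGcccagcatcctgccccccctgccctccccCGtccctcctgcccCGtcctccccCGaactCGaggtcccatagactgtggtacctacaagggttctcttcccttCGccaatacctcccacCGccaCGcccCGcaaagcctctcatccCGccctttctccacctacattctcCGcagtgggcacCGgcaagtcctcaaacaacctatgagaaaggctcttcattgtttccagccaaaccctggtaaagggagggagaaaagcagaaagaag
Gabrb1 (chr5:71657671-71657970, plus strand): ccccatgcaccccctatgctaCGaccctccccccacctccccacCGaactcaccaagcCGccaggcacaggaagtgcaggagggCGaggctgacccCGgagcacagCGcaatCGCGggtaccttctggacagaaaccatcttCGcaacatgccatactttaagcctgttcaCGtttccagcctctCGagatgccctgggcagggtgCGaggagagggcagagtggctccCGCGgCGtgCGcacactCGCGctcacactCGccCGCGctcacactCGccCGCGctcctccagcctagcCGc
Gabra6 (chr11:42321023-42321322, minus strand): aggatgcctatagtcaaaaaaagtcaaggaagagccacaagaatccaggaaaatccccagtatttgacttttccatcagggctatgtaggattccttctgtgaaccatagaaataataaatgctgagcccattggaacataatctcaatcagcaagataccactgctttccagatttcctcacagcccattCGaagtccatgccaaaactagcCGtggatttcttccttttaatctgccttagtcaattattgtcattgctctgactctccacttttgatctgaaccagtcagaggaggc

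The windows differed in base composition. The Gabra2 window was 70.0% G or C with 25 CpG, the Gabrb1 window shown 66.0% with 25 CpG and the Gabra4 window 58.7% with 12 CpG. The Gabrg1 window, 38.3% G or C with 3 CpG, and the Gabra6 window, 42.0% with 2 CpG, were on the other side of the median of all 32851 windows of this length, which was 52.7% with 7 CpG. Gabra2 and Gabrg1, grouped together as glial subunits, thus had windows of opposite kinds. The other Gabrb1 window, not shown, was 50.3% G or C with 9 CpG, below that median in G or C and above it in CpG. Of the motifs searched on both strands, the NFI half-site TTGGCA was in 14.1% of all windows and in 1 of the 9 windows of these genes, that of Gabra6, where it read tgccaa from 50 to 45 bases before the start. The E-box CANNTG, in 72.3% of all windows, occurred 2 times in the Gabrg1 window and once in that of Gabra2, and TATAAA, in 13.6% of all windows, in 1 of the 3 Gabrb2 windows, which also held an E-box. A match of letters is a description of the sequence only.

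Between 6399499 and 14733985 reads per library fell on genes. All 10 astrocyte markers, among them Slc1a3, Aqp4 and Gfap, had reads at each age. Their summed normalized count ranged from 64077 to 84938 at P1 and 28387 to 55244 at P7. It was 155862 to 194254 at P14 and, highest of all, 342792 to 403689 at P28, led there by Slc1a3 (mean 121507) and Slc1a2 (87579). The markers did not all move alike (limma, adjusted p under 0.05). From P1 to P7 5 of the 10 fell and 1, Gfap, rose. Between P1 and P28 8 were higher at P28 and 2, Aldh1l1 and Slc6a11, were lower. The 12 granule neuron markers, among them Neurod1, Cbln3 and Fat2, were also present at every age. Their sums were 3077 to 3491 at P1 and 4858 to 8290 at P7. At P14 they were 21598 to 39180 and, lower again, 14398 to 17249 at P28. The P1 sum was led by Kcnd2 (mean 1387) and Etv1 (958), with Neurod1 at 70.7, Cbln3 at 17.2 and Fat2 at 130. From P1 to P7 6 of the 12 rose and 2, Kcnd2 and Etv1, fell (limma, adjusted p under 0.05). Markers of other cells moved as well: the sum of 5 oligodendrocyte markers was highest at P14 (291045 to 352276), that of 6 GABAergic interneuron markers at P7 (4893 to 9980), and 3 choroid plexus markers ranged from 803 to 108084 among the P14 libraries alone. The sum of 7 Purkinje cell markers stayed between 452 and 1718 over all libraries, those of 3 microglial and 3 endothelial markers between 352 and 1837 and between 178 and 3714, and 4 red blood cell genes were listed at 0 in all 12 libraries. The sum of 4 granule neuron precursor markers was 2131 to 2638 at P7 and 6.76 to 14.2 at P28, that of 4 oligodendrocyte precursor markers 1439 to 6524 over all libraries, and that of 6 general neuronal markers 1325 to 3351 at P1 and 19733 to 36642 at P14. In sorted bulk RNA, fewer cells of a type and less RNA of a gene per cell cannot be told apart.

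Each subunit followed its own time course, and from P7 to P14 all of them moved the same way. In that step all 7 genes rose (limma, adjusted p under 0.05), beside 10.8% of the 15464 genes tested that were called higher (20.9% in either direction), and in all 7 every P14 library was above every P7 library, as in 21.3% of all genes. From P1 to P7 only Gabra6 rose and only Gabrg1 fell among the 7, beside 3.47% of all genes called higher and 4.24% called lower (7.70% in either direction). In these 2 genes the P1 and P7 libraries did not overlap, as in 20.1% of all genes with higher and 18.2% with lower P7 libraries. From P14 to P28 Gabra2 and Gabra4 rose and Gabrb2 fell, beside 5.68% called higher and 8.76% called lower (14.4% in either direction). Between P1 and P28 all 7 were higher, beside 14.6% of all genes (34.6% in either direction), and no P1 library of these genes reached a P28 library, as in 17.9%. At an unadjusted p under 0.05 with a log2 change over 0.75, the calls among the 7 were 4, 7 and 5 in the 3 steps and 7 from P1 to P28, beside 14.2%, 26.2%, 24.1% and 39.3% of all genes. The median change of the 7 genes was a log2 fold change of 0.78, 1.89 and 0.54 in the 3 steps and 3.803 over the whole period, where that of all genes tested was 0.037, -0.086, -0.12 and -0.24. With library totals as the only scaling the median of all genes moved to 0.095, -0.34, -0.35 and -0.66, and no direction of the 7 genes changed. All 7 passed the filter of 10 normalized counts in at least 3 libraries, Gabra6 and Gabrd through the ages at which they were high.

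**Figure D1:**
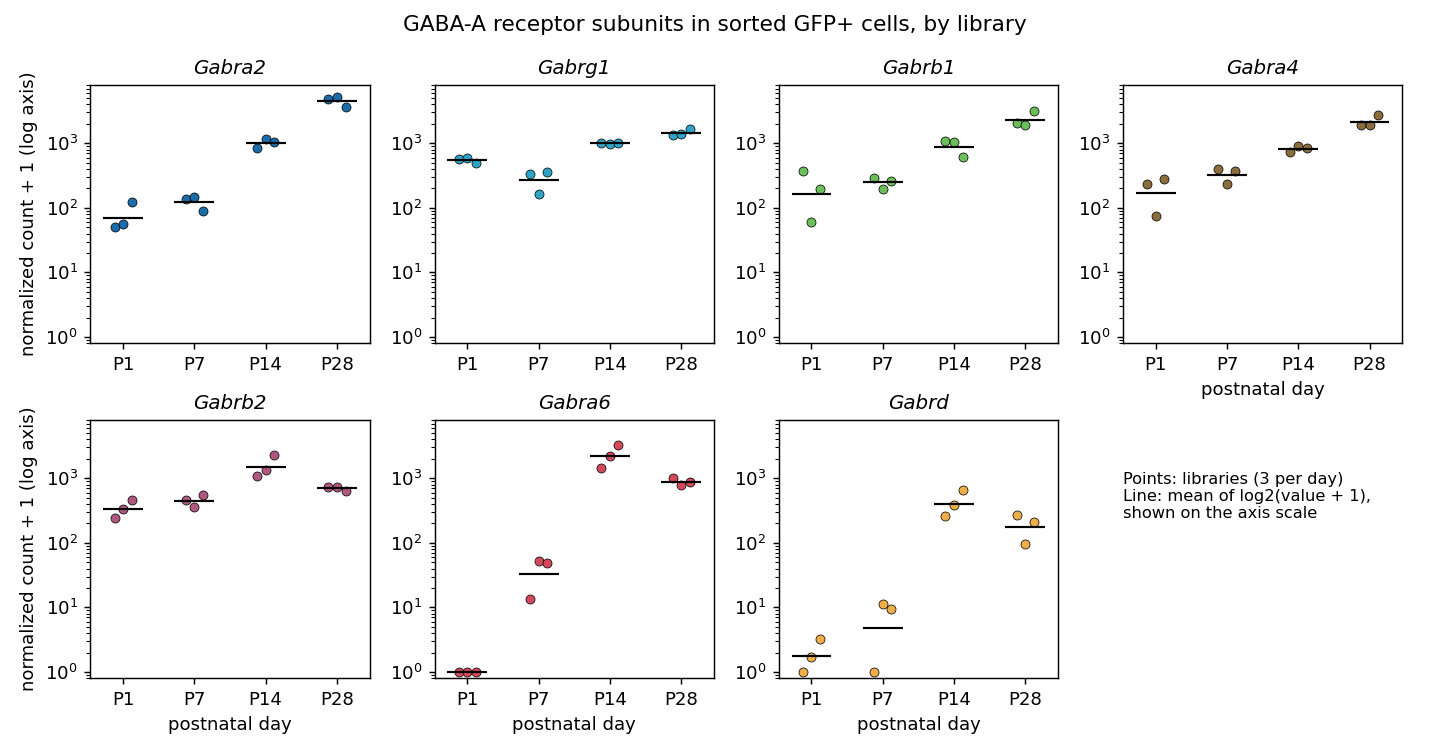
Normalized count plus 1 (log axis) of the 7 subunit genes in each of the 3 libraries at P1, P7, P14 and P28, with a line at the mean of the log2 values. Gabra2 climbed at each step after P7, Gabrg1 dipped at P7, and Gabra6 and Gabrd went from no or few reads at P1 to their highest values at P14.

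Gabra2, an alpha subunit of Bergmann glia and of many neurons, had the largest change over the whole period among the glial subunits. Its normalized count was 48.6, 55.7 and 122.7 in the P1 libraries and 136, 144 and 88.4 at P7, then 858, 1177 and 1056 at P14, and 4821, 5196 and 3657 at P28. The P1 and P7 libraries overlapped, whereas every P14 library exceeded every P7 library and every P28 library exceeded every P14 library. From P7 to P14 it rose 8.44-fold (log2 fold change 3.08, SE 0.33, adjusted p = 1.47e-05) and from P14 to P28 a further 4.41-fold (2.14, SE 0.33, adjusted p = 0.00127). The first step, with a log2 fold change of 0.78 (SE 0.33, adjusted p = 0.195), was not called unless P1 replicate 3 was left out (1.19, adjusted p = 0.0225). Over the whole period Gabra2 was 64.1-fold higher at P28 than at P1 (6.002, adjusted p = 1.38e-08).

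Gabrg1, the gamma1 subunit, differed from Gabra2 in that it fell from P1 to P7. Its normalized count was 576, 595 and 488 at P1 and 337, 161 and 354 at P7, with no overlap, as in 18.2% of all genes with lower P7 libraries. It was 1001, 958 and 1019.7 at P14 and 1327, 1376 and 1640.4 at P28. The fall from P1 to P7 was 2.05-fold (log2 fold change -1.04, SE 0.26, adjusted p = 0.0258), and the rise from P7 to P14 was 3.70-fold (1.89, SE 0.26, adjusted p = 0.000148). The P28 libraries were all above the P14 libraries, but this step did not pass the test (0.54, SE 0.26, adjusted p = 0.186). The fall at P7 rested on single libraries: the adjusted p was 0.0954 without P1 replicate 1 or without P1 replicate 2, and the log2 fold change was -0.67 (adjusted p = 0.0977) without P7 replicate 2, the library with the lowest value. The summed astrocyte markers were lowest in that same library (28387, against 50854 and 55244 in the other P7 libraries), and 5 of the 10 astrocyte markers fell from P1 to P7 while 1 rose. Their part in the result was not tested.

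Gabrb1, the beta subunit of the glial group, varied widely among the P1 libraries and rose after P7. At P1 its normalized count was 374, 60.02 and 197, at P7 288, 196 and 262, at P14 1076, 1045 and 607, and at P28 2065, 1898 and 3137. The P1 libraries spanned more than the whole P7 range, and no other step overlapped. The rise from P7 to P14 was 3.57-fold (log2 fold change 1.84, SE 0.49, adjusted p = 0.0147) and that from P1 to P28 was 13.96-fold (3.803, adjusted p = 4.17e-05). The step from P14 to P28, 1.39 on the log2 scale (SE 0.49), did not pass (adjusted p = 0.0716). Without P7 replicate 2, P14 replicate 1 or P14 replicate 2 the middle step had adjusted p of 0.0570, 0.0603 and 0.0633. The last step was called when P1 replicate 1 (0.0356) or P1 replicate 2 (0.0115) was left out, when only P14 and P28 entered the fit (0.0398) and by DESeq2 (0.0253). The direction from P1 to P7, 0.58 with an adjusted p of 0.627, turned to -0.14 without P1 replicate 2, and without P1 replicate 1 or 2 the change from P1 to P28 was 4.39 or 3.08.

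Gabra4, the alpha subunit whose gene starts beside that of Gabrb1, rose in similar steps. Elsewhere in the brain it is known to join the delta subunit in receptors outside synapses. Its normalized count was 237, 73.6 and 278 at P1 and 392, 236 and 367 at P7, then 739, 896 and 842 at P14 and 1889.6, 1917 and 2691 at P28. The library with the lowest value at P1, replicate 2, was also the lowest for Gabrb1. The rise was 2.54-fold from P7 to P14 (log2 fold change 1.34, SE 0.39, adjusted p = 0.0253) and 2.59-fold from P14 to P28 (SE 0.39, adjusted p = 0.0319). Both steps depended on single libraries: the first had an adjusted p of 0.106 without P7 replicate 2, 0.0516 without P7 replicate 3 and 0.0527, 0.0855 and 0.0709 without P14 replicates 1, 2 and 3. The second had 0.0977, 0.0685 and 0.0854 without P14 replicates 1, 2 and 3, and 0.0809 without P28 replicate 3. With library totals as the only scaling they were 1.09 (adjusted p = 0.0592) and 1.14 (adjusted p = 0.0638). The net change from P1 to P28, 12.5-fold (3.65, adjusted p = 8.77e-06), was called in all of these settings and was 3.05 without P1 replicate 2.

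Gabrb2, a beta subunit of granule neurons and of many other neurons, peaked at P14. Its normalized count was 239.9, 331 and 454 at P1 and 452, 357 and 553 at P7, then 1074, 1320.2 and 2278 at P14 and 734, 734 and 627 at P28. It rose 3.30-fold from P7 to P14 (log2 fold change 1.72, SE 0.30, adjusted p = 0.000825) and fell 2.12-fold from P14 to P28 (log2 fold change -1.08, SE 0.30, adjusted p = 0.0260). P14 replicate 3 had the highest value, and it also held the highest sum of granule neuron markers. Without it the fall was -0.77 on the log2 scale (adjusted p = 0.119). The fall also had an adjusted p of 0.0501 without P14 replicate 2, 0.0554 without P28 replicate 3 and 0.0780 with only P14 and P28 in the fit. The difference between P28 and P1 was the smallest of the 7, at 2.10-fold (1.07, SE 0.30, adjusted p = 0.0122). It was 0.84 (adjusted p = 0.0655) without P1 replicate 1 and 0.64 (adjusted p = 0.1003) with library totals as the only scaling.

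Gabra6, the granule neuron alpha subunit, had no read in any P1 library. Reads appeared at P7, with 16, 39 and 62 in the 3 libraries, which gave normalized counts of 12.7, 51.0 and 48.1. At P14 the normalized count was 1433, 2196 and 3285, and at P28 it was 1011, 799.7 and 872. A library with no read can still hold up to 3 reads, which averages 2.09 normalized counts at P1. Against that floor Gabra6 was at least 17.9-fold higher at P7, 1104-fold at P14 and 429-fold at P28. The rises from P1 to P7 and from P7 to P14 were called (adjusted p = 9.94e-05 and 3.96e-06), the second at 66.6-fold (log2 fold change 6.06, SE 0.55). Without P7 replicate 1, the lowest P7 library, the second rise was 5.43. All P28 libraries were below all P14 libraries, as in 14.5% of all genes, and the log2 fold change of -1.29 (SE 0.55) did not pass limma's test (adjusted p = 0.131). It passed by edgeR (-1.37, adjusted p = 0.0391 with TMM scaling and 0.0407 with DESeq2 size factors) and by DESeq2 (-1.37, adjusted p = 0.0132).

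Gabrd, the delta subunit, had few reads before P14. It had 0, 1 and 3 reads in the P1 libraries and 0, 8 and 11 at P7, which are normalized counts of at most 2.27 and 10.47. At P14 the normalized count was 255, 391 and 665 and at P28 it was 273, 95.5 and 207. The rise from P7 to P14 was 84.9-fold on the scale of log2(value + 1) (log2 fold change 6.41, SE 0.92, adjusted p = 0.000193). It was 5.28 without P7 replicate 1, which had no read, and 7.04 without P7 replicate 2. From P1 to P7 the change of 1.43 (SE 0.92, adjusted p = 0.476) was not detectable at this depth. The P14 and P28 libraries overlapped, and the change of -1.20 (SE 0.92, adjusted p = 0.413) did not pass. At P14 the libraries held the same order for Gabra6, Gabrd, Gabrb2 and the summed granule neuron markers, with replicate 1 lowest and replicate 3 highest, and the part of the markers in these results was not tested.

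**Figure D2:**
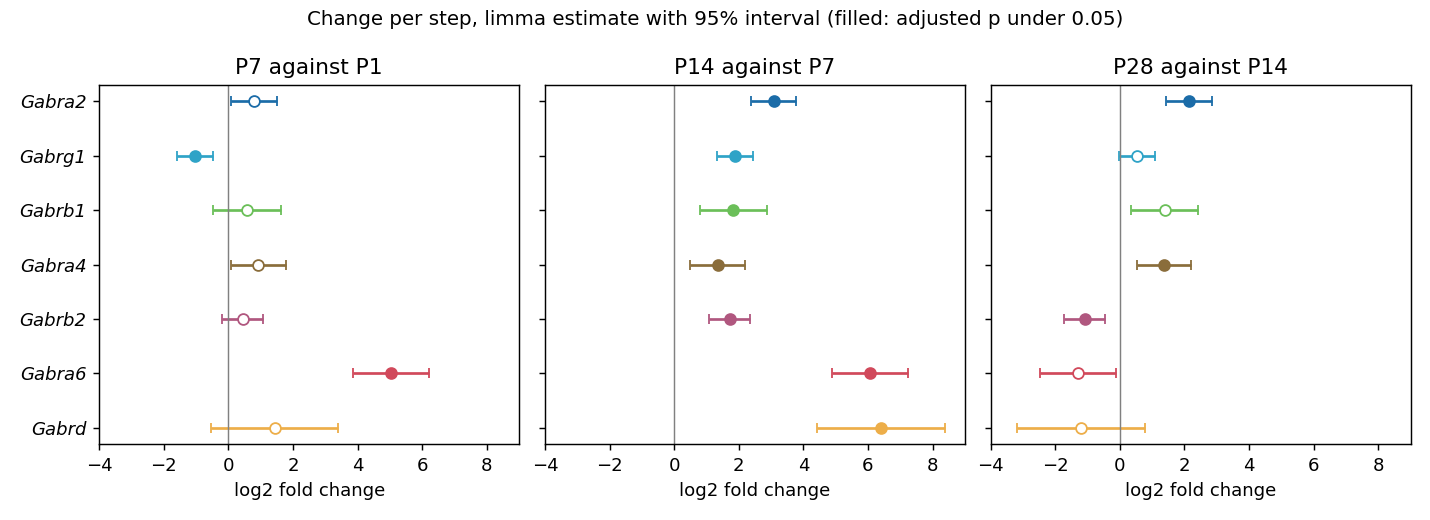
Log2 fold change of each subunit gene in the 3 steps from limma, with 95% intervals, where filled points have an adjusted p under 0.05. All 7 points are filled and above 0 for P14 against P7, and for P28 against P14 the glial subunits and Gabra4 lie above 0 while Gabrb2, Gabra6 and Gabrd lie below.

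The contrast of glial with granule neuron subunits was described per library as the mean log2(normalized count + 1) of Gabra2, Gabrg1 and Gabrb1 minus that of Gabra6 and Gabrd. The normalized counts are not divided by gene length here, so the ratio serves to compare ages, not to say which group had more transcripts. This log2 ratio was 7.12 ± 0.60 (SD, n = 3) at P1 and 4.0 ± 1.75 at P7, then 0.035 ± 0.74 at P14 and 2.64 ± 0.47 at P28. It was above 0 in every P1, P7 and P28 library, and at P14 it was 0.69 in replicate 1, 0.19 in replicate 2 and -0.77 in replicate 3. At P1, where Gabra6 had no read, the ratio depends on the value added before the logarithm: it was 9.58 with 0.1 and 4.25 with 10. The mean at P14 was -0.29 without replicate 1, -0.041 without replicate 2 and 0.44 without replicate 3. With each gene divided by its exonic length, a setting added after the data were seen, the ratio was 5.31 at P1 and 2.19 at P7, then -1.78 at P14 and 0.82 at P28. Per length, all 3 P14 libraries were below 0 (-1.13, -1.63 and -2.58) and the P28 libraries lay between 0.35 and 1.29. Gabrg1 alone against Gabra6, not divided by length, gave 9.11, 3.04, -1.13 and 0.69 at the 4 ages, and all 3 P14 libraries were then below 0. Per length this difference was 7.45, 1.38, -2.79 and -0.97, so that Gabra6 was higher than Gabrg1 in all P14 and P28 libraries. After P14 the groups parted: Gabra2, Gabrb1 and Gabrg1 were higher in all P28 than in all P14 libraries, as were 11.7% of all genes, Gabra6 was lower, and Gabrd overlapped. The difference between the groups of subunits is given as a description without a test.

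Levels of different genes were compared after division by exonic length, as normalized counts per kilobase. At P1 Gabrg1 led the 7 genes with 62.0 to 75.6, overlapping Gabrb2 with 37.7 to 71.4, and Gabra4 (12.1 to 45.7), Gabrb1 (4.34 to 27.0) and Gabra2 (6.36 to 16.1) followed with overlapping ranges. At P7 Gabrb2 led with 56.2 to 87.0, Gabra4 overlapped it with 38.7 to 64.4, and Gabrg1 overlapped Gabra4 with 20.5 to 45.0. At P14 Gabra6 stood above all others with 576 to 1319.8. Gabrb2 (169 to 358) and Gabrd (88.8 to 231) overlapped, the libraries of Gabra4, Gabra2 and Gabrg1 lay together between 112 and 154, and Gabrb1 was below them with 43.9 to 77.8. At P28 Gabra2 led with 479 to 680.04 and overlapped no other subunit. Gabra6 (321 to 406) and Gabra4 (311 to 442) could not be separated, nor could Gabrg1 (169 to 208) and Gabrb1 (137 to 227), and Gabrb2 (98.7 to 115) and Gabrd (33.2 to 95.1) were lowest.

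Over all 19 GABA-A subunit genes, the summed level per kilobase was 466 ± 89.3 (SD, n = 3) at P1 and 612 ± 79.7 at P7, then 2279 ± 709 at P14 and 2140.2 ± 86.7 at P28. The 7 genes made up 39.4%, 34.7%, 78.4% and 86.2% of that sum at the 4 ages. The share of the glial subunits was 21.1% ± 5.32 at P1 and 11.4% ± 1.83 at P7, then 15.3% ± 4.57 at P14 and 44.6% ± 3.67 at P28. That of the granule neuron subunits was 0.0655%, 2.85% ± 1.85, 46.3% ± 5.67 and 19.9% ± 3.00. The larger share thus passed from the glial to the granule neuron subunits at P14 and back at P28, and in each of these 2 ages the ranges of the 2 shares did not overlap. Without division by length the P14 shares were close, at 27.2% for glial and 23.7% for granule neuron subunits, the exonic lengths of Gabra6 and Gabrd (2489 and 2875 bases) being shorter than those of the glial subunits (7640 to 13838 bases).

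Within each class of subunit the shares of these genes shifted with age. Among 6 alpha subunits, Gabra4 held 33.7% at P1 and 47.9% at P7, Gabra6 67.9% at P14 and Gabra2 42.8% at P28, when Gabra6 and Gabra4 held 25.8% and 25.7%. Of the beta subunit signal, Gabrb2 held 42.0% and Gabrb1 12.6% at P14, and at P28 Gabrb1 held 39.1% and Gabrb2 26.2%. Of the gamma and delta signal, Gabrg1 held 70.6% at P1 and 36.0% at P7, Gabrd 42.7% and Gabrg1 38.3% at P14, and Gabrg1 63.5% at P28. The chromosome 5 group of Gabrg1, Gabra2, Gabra4 and Gabrb1 made up 27.9%, 20.3%, 21.5% and 61.1% of all subunit signal at the 4 ages. The X-linked Gabre, Gabra3 and Gabrq went from 8.49% at P1 to 0.0804% at P28.

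**Figure D3:**
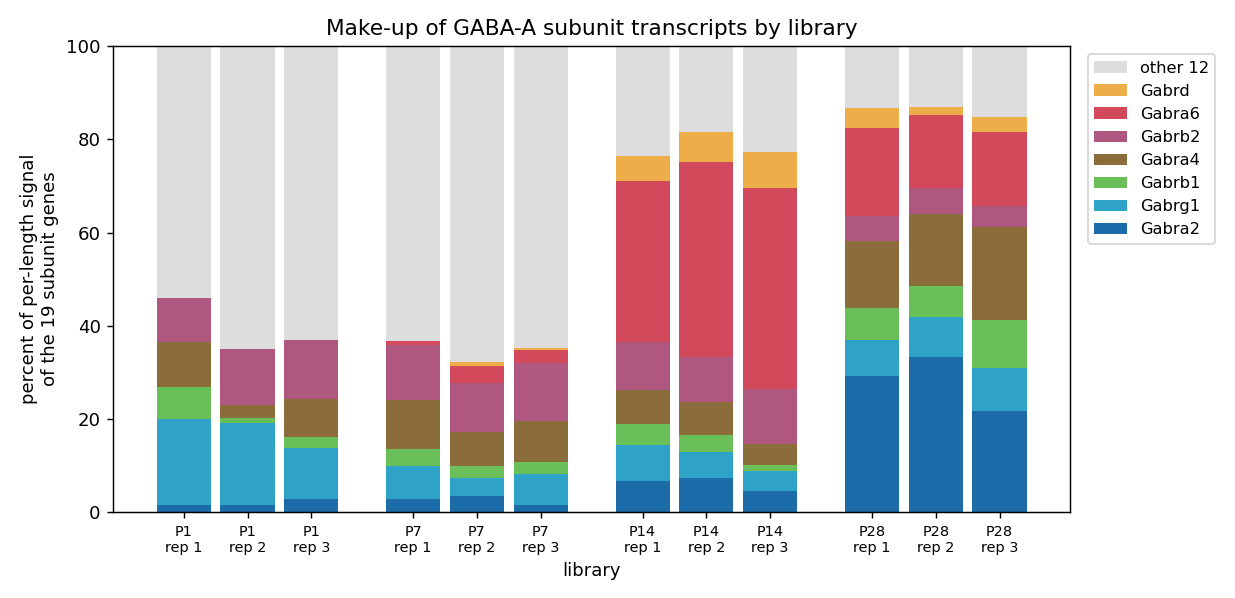
Percent of the summed normalized count per kilobase of 19 GABA-A subunit genes contributed by each gene, one bar per library. The 12 other subunit genes (grey) together exceed the 7 genes at P1 and P7, and among the 7 Gabra6 (red) is the largest part at P14 and Gabra2 (dark blue) at P28.

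Since marker genes of both cell types changed with age, each subunit was also set against the summed markers of a cell type in the same library. Against the 12 granule neuron markers, Gabra6 was 0% at P1 and 0.551% ± 0.263 at P7, then 7.73% ± 0.958 at P14 and 5.76% ± 1.10 at P28 (SD, n = 3). The P14 and P28 ranges, 6.63% to 8.38% and 5.06% to 7.02%, overlapped. Gabrd went from 0.0880% at P7 to 1.45% at P14 and 1.24% at P28. The means of Gabrb2 went the other way, from 10.6% ± 3.97 at P1 to 7.52% ± 2.78, 5.24% ± 0.503 and 4.497% ± 0.763. Its ranges overlapped at each consecutive step, but the P28 range (3.64% to 5.10%) was below that at P1 (6.87% to 14.8%). The marker sum at P1 was led by Kcnd2 and Etv1, which both fell from P1 to P7, so the P1 percentages rest mainly on these markers. Of the 12 granule neuron markers 11 rose from P7 to P14 and 4 fell from P14 to P28. From P7 to P14 Gabra6 and Gabrd thus gained on the markers by more than the spread between libraries, and Gabrb2 did not.

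Against the 10 astrocyte markers, of which 8 rose from P7 to P14 and 7 rose and 1 fell from P14 to P28, Gabra2 was 0.105% at P1 and 0.309% at P7, then 0.587% at P14 and 1.25% ± 0.300 at P28. Its P28 range, 0.906% to 1.44%, was above that of every other age. Gabrg1 moved in the opposite direction, from 0.721% ± 0.0412 at P1 to 0.624%, 0.569% and 0.392% ± 0.0128 at P28, where its range of 0.382% to 0.406% was below all earlier libraries. Gabrb1 was 0.0729% to 0.440% at P1, lay between 0.389% and 0.777% in all libraries from P7 on, and was 0.527% to 0.777% at P28. Gabra4 was 0.0894% to 0.434% at P1 and 0.709% to 0.830% at P7. It was lower again at P14, with 0.412% to 0.540%, and 0.532% to 0.667% at P28. Relative to the sum of the astrocyte markers, Gabra2, Gabrb1 and Gabra4 were thus higher in every P28 than in every P1 library. Gabrg1 lagged behind that sum. Of the chromosome 5 group, Gabra2 had the largest mean at P28 on this scale. That sum was led by Slc1a3 and Slc1a2 at P28. The granule neuron list includes Chn2 and the astrocyte list Slc6a11, genes that also appear among the values that follow.

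**Figure D4:**
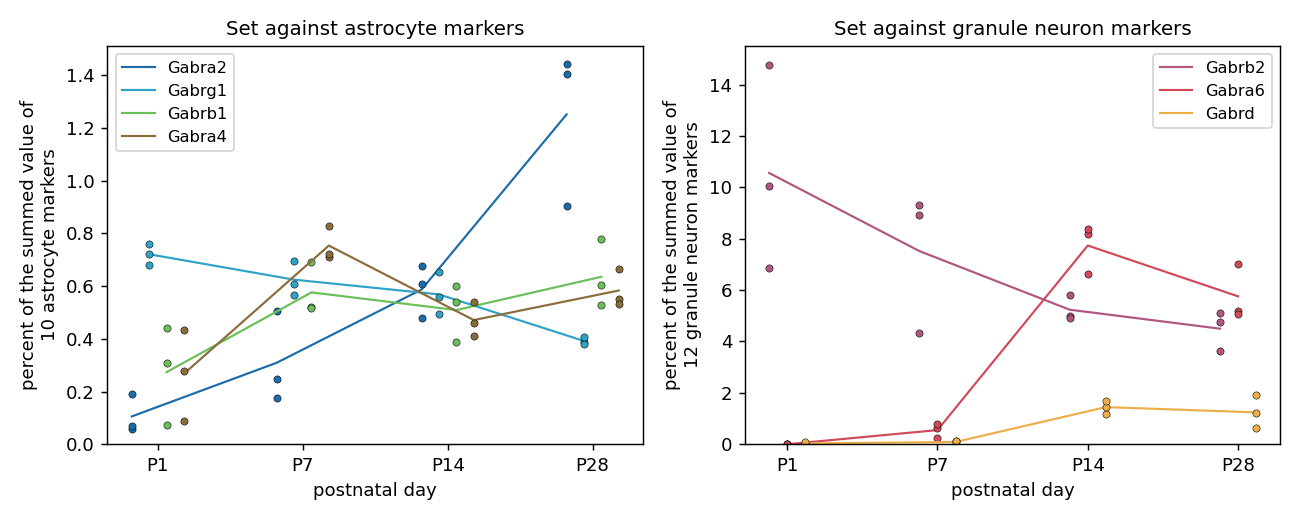
Each subunit's normalized count as a percent of the summed normalized count of 10 astrocyte markers (left) or 12 granule neuron markers (right) in the same library, with points for the 3 libraries per age and lines through the means. Gabra2 climbs on the left to 1.25% at P28 while Gabrg1 goes down to 0.392%, and on the right Gabra6 is at 7.73% at P14 and Gabrb2 goes down from 10.6% at P1.

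The remaining 12 subunit genes showed a different balance. Of the 9 that were tested, 1 fell from P14 to P28 and 4 were lower at P28 than at P1, beside the 20.0% of all genes called lower over that period. Their median log2 fold change from P1 to P28 was -1.05. The alpha3 subunit Gabra3 had 90.9 to 102 at P1 and fell from 23.3 to 45.6 at P14 to 0, 0 and 20.5 at P28 (-3.57, SE 0.998, adjusted p = 0.0288), and was not called without P14 replicate 1 or P28 replicate 2 or with only P14 and P28 in the fit.

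Some subunits present at P1 had no read in any P28 library. Gabra5, an alpha subunit of receptors outside synapses, had 21.5, 69.3 and 86.3 normalized counts at P1, between 16.3 and 19.9 at P7, between 1.09 and 6.35 at P14, and no read at P28. The theta subunit Gabrq had 36.3, 60.7 and 53.0 at P1 and the epsilon subunit Gabre 25.8, 12.9 and 24.99, and neither had a read at P28. With 3 reads per library as the floor, Gabra5 was at least 14.8-fold, Gabrq at least 12.5-fold and Gabre at least 5.32-fold higher at P1 than at P28 (adjusted p = 0.000103, 3.36e-05 and 0.00563). The rho subunits are mainly known from the retina. Gabrr1 was uneven, with 139 normalized counts in P28 replicate 2 and 0 in the other P28 libraries, and Gabrr1 and its neighbour Gabrr2 each had 57 reads in P14 replicate 3. Gabrp was below the filter with 6 reads in 1 P7 library, Gabrr2 was below it too, and Gabrr3 was listed at 0 throughout.

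A list of 18 genes covered the proteins that bring receptors to the membrane and hold them there. Of these, 1 rose and 1 fell from P1 to P7 (of all genes tested 7.70% changed in either direction), 3 rose from P7 to P14 (10.8% of all genes rose) and 1 fell from P14 to P28 (8.76% of all genes fell), with medians of -0.18, 0.017 and 0.15 on the log2 scale. Gphn, which encodes the scaffold gephyrin, rose 1.69-fold from P7 to P14 (adjusted p = 0.0163), from a mean of 679 ± 14.6 to 1172 ± 290 (SD, n = 3). Clptm1, which limits receptor exit to the surface, rose 1.74-fold (adjusted p = 0.0105) after a fall of 1.80-fold from P1 to P7 (adjusted p = 0.0174). With library totals as the only scaling none of the 18 was called from P7 to P14. Trak2, a transport adaptor, rose 1.82-fold from P1 to P7 (adjusted p = 0.0488), and that step had no call among the 18 without any one of the P7 libraries or without P1 replicate 1 or 2. Hap1 fell 5.61-fold from P14 to P28 (adjusted p = 0.0394), from 11.6 to 142 at P14 to between 6.76 and 10.2 at P28, and it was not called when any one of 9 of the 12 libraries was left out, among them P14 replicates 1 and 3 and P28 replicate 2. Clptm1 had the highest normalized count of this list at P28, not divided by length, with a mean of 3215 ± 687.

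The supply and removal of GABA changed in both directions. Of 17 genes 2 rose and 6 fell from P1 to P7 (3.47% and 4.24% of all genes), 8 rose and 3 fell from P7 to P14 (10.8% and 10.0% of all genes), and 3 rose and 1 fell from P14 to P28 (5.68% and 8.76% of all genes). The GABA-making enzymes Gad2 and Gad1 rose 5.98-fold and 5.51-fold at P7 (adjusted p = 0.00468 and 0.0372) and fell 5.29-fold and 6.72-fold at P14 (adjusted p = 0.00286 and 0.00890), as did the vesicular carrier Slc32a1 at P14 (11.5-fold, adjusted p = 0.00436). Gad2 and Slc32a1 belong to the interneuron markers and Gad1 to the Purkinje cell markers, and all 6 interneuron markers fell in that step. Their part in the result was not tested. The GABA transporter Slc6a11 fell 5.21-fold at P7 (adjusted p = 0.00155), together with the GABA-B receptor subunits Gabbr1 (2.73-fold, adjusted p = 0.000223) and Gabbr2 (2.504-fold, adjusted p = 0.00791), while the subunit Gabrg1 fell 2.05-fold. At P14 the chloride exporter Slc12a5, a neuronal gene, rose 4.68-fold (adjusted p = 0.0106). Dbi, a ligand of the benzodiazepine site of GABA-A receptors and the gene of the list with the highest normalized count at P28, not divided by length, rose 2.73-fold from P14 to P28 (adjusted p = 0.00267), to a mean of 30328 ± 6898 (SD, n = 3), while Slc6a11 fell 2.43-fold (adjusted p = 0.0369).

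The genes whose values over the 12 libraries were most like those of each subunit were listed by Pearson's r of log2(value + 1) among 10205 genes with a mean of at least 100. These correlations describe libraries that share 4 ages, so they carry no p. Gabra2 was nearest to Adk (r = 0.992), Lgi4 (0.988) and Bmp2k (0.986), and Gabrg1 to Tmem229a (0.988), Mboat2 (0.986) and Sparcl1 (0.983). The second group shared with Gabrg1 a lower mean at P7 than at P1, as in Sparcl1 with 81336 and 35724. Gabra4 and Gabrb1 shared 2 of their 3 nearest genes, Gria1 (0.987 and 0.967) and Gjc3 (0.975 and 0.963), and the others were Slc38a1 (0.974) for Gabra4 and Abcb9 (0.965) for Gabrb1. Gabra6 was nearest to Camk4 (0.991), Grm4 (0.990) and Chn2 (0.989), Gabrd to Ipcef1 (0.980), Diras2 (0.979) and Unc13c (0.978), and Gabrb2 to Napb (0.966), Cacnb4 (0.958) and Scn2a1 (0.958). All 9 of these genes had their highest mean at P14, as did Gabra6, Gabrd and Gabrb2. Since all neighbours were chosen by likeness over these same libraries, the shared P7 dip and P14 peak are no separate result.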

How the data were processed

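RNA-seq of GFP+ cells sorted from Aldh1l1-GFP mouse cerebellum was analysed in 12 libraries grouped by their labels, with 3 per age (P1, P7, P14, P28). The authors aligned paired-end reads to mm10 with STAR 2.5.0a, counted them per gene and normalized them with DESeq2 1.30.1, with these versions taken from the submitters' processing notes. The paper's methods name another DESeq2 version. The deposited values are a signal on a normalized scale, each library having been divided by a size factor of its own, and not raw counts. Dividing by the value of 1 read gave whole reads for 100% of the values (tolerance 0.01), which served for depth, floors and count-based alternatives. Depth was 6399499 to 14733985 reads on genes per library. A library with no read of a gene can hold up to 3 reads at 95% confidence, for counting error only. All column names carry P28, whatever the age, so ages rest on the labels, and 0 columns were left unmapped. The columns hold no results of comparisons.

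Changes were tested with limma 3.58.1 in R 4.3.3. The fit used log2(value + 1) of all 12 libraries with 1 mean for each age and a variance trend. It covered the 15464 genes that reached 10 normalized counts in 3 or more libraries, and a call required a Benjamini-Hochberg adjusted p under 0.05 over all genes tested. Since the values are not raw counts, limma was the main test, and edgeR 4.0.16 and DESeq2 1.42.0 on the recovered reads were alternatives. Other alternatives were the pseudocount, the filter, the scaling, only the ages compared, the replicate number as a block, the paper's threshold as read (unadjusted p under 0.05 and a log2 change over 0.75) and each library left out. Division of the ratio of glial to granule neuron subunits by gene length was added after the data were seen. Gene bounds and exonic lengths came from GENCODE M21, and promoter windows from RefSeq. The 7 genes, the lists of other subunits, of assembly and clustering genes, of GABA supply genes and of cell type markers, and the rule for named genes were chosen with earlier results of these data known. By that rule, the 7 genes, other subunits that were called or led their gene cluster, at most 4 called genes of each list in a step with the largest change, its gene with the highest normalized count, at most 3 markers of a cell type and the 3 genes most correlated with each subunit were named. The values of a few genes of these lists are not given in this text. Gabre, Gabrq, Gabra5, Gabrr1, Gabrr2, Gabrp and Gabrr3 were named after their values were seen where the rule did not cover them. The same holds for Gabbr1, Gabbr2 and Slc12a5 beside larger changes, and for the markers Kcnd2, Etv1, Slc1a2 and Aldh1l1.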

Additional observations from a re-analysis of the deposited data

How the results depend on the processing

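The number of the 7 subunit genes called was 2, 7, 3 and 7 for P7 against P1, P14 against P7, P28 against P14 and P28 against P1. Leaving out each library in turn gave 1 to 3, 5 to 7, 1 to 4 and 6 to 7. For P7 against P1 it was 1 with at least 10 reads in every library (5 of the genes tested) and 4 at an unadjusted p under 0.05 with a log2 change over 0.75. For P28 against P14 it was 5 by DESeq2 and 5 at that unadjusted threshold. Of the single changes, 313 of 336 with a library left out and 291 of 300 under other settings kept direction and side of the threshold, and 1 turned, that of Gabrb1 for P7 against P1 (-0.14 without P1 replicate 2 and 1.17 without P1 replicate 1, from 0.58). Fitted changes of genes near 0 moved with the pseudocount: Gabra6 ranged from 6.49 to 13.12 and Gabrd from 4.09 to 8.25 for P28 against P1.

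The log2 ratio of glial to granule neuron subunits was 9.58 and 4.25 at P1 with pseudocounts of 0.1 and 10. Divided by exonic length, an alternative chosen after seeing the data, it was 5.31, 2.19, -1.78 and 0.82 at the 4 ages, which turned its sign at P14. Gabrg1 against Gabra6 alone gave 9.11 at P1, -1.13 at P14 and 0.69 at P28. With a library left out the ratio was 6.79 to 7.38 at P1 and 3.0003 to 4.62 at P7, then -0.29 to 0.44 at P14 (-0.29 without replicate 1 and -0.041 without replicate 2) and 2.40 to 2.87 at P28. Without division by length the glial share was 27.6%, 16.3%, 27.2% and 58.7% at the 4 ages, and the granule neuron share 23.7% at P14 and 7.60% at P28. With a library left out the glial share was 18.2% to 23.5%, 10.4% to 12.2%, 13.4% to 17.8% and 42.6% to 46.2%, and the granule neuron share 0.0287% to 0.0983%, 2.03% to 3.85%, 44.0% to 49.4% and 18.2% to 21.1%.

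Counts for the other lists were small and moved. Of the other subunits, 1 was called for P7 against P1. This was 2 with a pseudocount of 10 and with the replicate block, 0 by edgeR with either scaling, 5 with only these ages, 3 at the unadjusted threshold, and 0 to 1 with a library left out. For P14 against P7 it was 3 at the unadjusted threshold and 1 to 2 with a library left out. For P28 against P14 it was 3 with a pseudocount of 0.1 and with library totals, 0 with at least 10 reads in every library and with only these ages, 2 by edgeR with either scaling and with the replicate block, 5 by DESeq2, 6 at the unadjusted threshold and 0 to 2 with a library left out. Of the assembly and clustering genes, 2 were called for P7 against P1. This was 1 with a pseudocount of 0.1, with no filter and by edgeR with either scaling, 6 with only these ages and 0 to 3 with a library left out. For P14 against P7 it was 0 with library totals, 5 with only these ages and 2 to 4 with a library left out. For P28 against P14 it was 0 with a pseudocount of 10, no filter, at least 10 reads in every library or only these ages, and 0 to 3 with a library left out. The GABA supply genes gave 6 to 11, 9 to 11 and 2 to 6 in the 3 steps with a library left out, with 2 for P28 against P14 without P14 replicate 3. The causes of these moves were not tested, and the settings with fewer genes or fewer libraries differ in that by construction.

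Replicate numbers did not pair the libraries: over 18 pairs of same-numbered libraries of different ages, deviations from the age means correlated at -0.029 to 0.14 (median 0.031), with 1 pair over 0.1. With the replicate number as a block, 2, 7, 3 and 7 of the subunit genes were called, and it changed no call of these genes. Depth limits Gabrd at P1 and P7 and Gabra6 at P1, where single reads set the values.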
